A study of Homo sapiens with 16 samples.

Results

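The 10 SOX genes SOX2, SOX4, SOX7, SOX9, SOX11, SOX12, SOX13, SOX15, SOX17 and SOX21 were followed in 16HBE human bronchial epithelial cells. All 12 array probes that carry one of these names were taken, of 58201 probes for 42665 gene names on the array. The genes were chosen by name, and SOX17 was included because of its low signal in cells with MET exon 14 skipping, so its values in those cells are a description without a test. Each condition was measured on 4 one-colour Agilent arrays. These were 16HBE-WT and 16HBE-ex14 cells, each without HGF or with HGF at 20 ng/mL for 24 h. All cells had first spent 2 h without serum. MET is the receptor of hepatocyte growth factor (HGF), and the ex14 cells had been edited by CRISPR/Cas9 so that exon 14 of MET is skipped. The edited cells on the arrays were 1 clone, F, so the edit and other properties of that clone cannot be told apart. The study repeated the experiment in weekly cultures, but which array belongs to which week is not given in the sources used here, and replicates are numbered by slide and row.

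SOX proteins are transcription factors that bind DNA through an HMG box, a domain first described in SRY. They usually act with a partner protein, and they steer cell fate in many embryonic tissues. In the developing lung SOX2 marks the proximal airways and SOX9 the tips of the growing buds, while SOX17 is a factor of endoderm and of blood vessel lining.

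SOX4, SOX9, SOX13 and SOX15 gave signal in every array, SOX17 chiefly in wild-type cells, and the other 5 genes lay at or near background. With HGF no SOX probe passed the test in either genotype, beside 0% of all tested probes in wild-type and 2% in edited cells. Between the genotypes with HGF 1 of 6 SOX probes passed, beside 10.8% of all tested probes. It was a SOX13 probe, lower in 16HBE-ex14+HGF than in 16HBE-WT+HGF, while another probe of the same gene pointed the other way. That call was lost under another background correction, under median or spike-in scaling and without some single arrays. Without HGF 0 of 6 passed, beside 9.4%. SOX17 lay at least 11.99-fold lower in 16HBE-ex14 than in 16HBE-WT, a size that shrank under another background correction with an offset of 50 (log2 -1.39).

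Values are log2 intensities relative to the 75th percentile of their array, and levels of different probes cannot be set against each other. Between 49.0% and 60.3% of the probes of an array were well above background by the scanner software. The 8 epithelial marker genes examined were well above background on all arrays, and 6 of 8 endothelial markers, among them PECAM1 and KDR, were on none. MET itself differed by 0.14 between the genotypes without HGF and by 0.16 with HGF, which did not pass the test, and HGF was above background on 0 of 16 arrays. The MET probe lies near the 3′ end of the gene, outside exon 14, so it does not check the edit. Precision is limited by how many arrays there were. In these bulk RNA samples fewer cells that express a gene and less RNA per cell cannot be told apart.

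Each probe is 60 bases long, and the first 30 bases are given for the 3 probes of SOX13, because the gene's result depends on which of them is read. SOX13 is a SOXD protein that acts in T cell and cartilage development. All lie on the plus strand of chromosome 1 in hg19, the CAG-rich probe at chr1:204086258-204086317, the middle probe at chr1:204088800-204088859 and the 3′ probe at chr1:204096551-204096610. Capitals mark the triplet CAG.
SOX13 CAG-rich probe: gCAGCAGCAGCAGctgattCAGCAGCAGca
SOX13 middle probe: tgttcCAGcatCAGttcaaaagtttcaagt
SOX13 3′ probe: ttcacaaagtttgttccctaaggaaatcaa
Over its whole length the first of these probes holds 10 CAG triplets. The longest run of bases shared by any of the 66 pairs of SOX probes was 9.

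The CAG-rich probe read 2.28, 2.38, 2.10 and 1.93 in the 4 arrays of 16HBE-WT+HGF. In 16HBE-ex14+HGF it read 1.59, 1.77, 1.11 and 1.41. The groups did not overlap, and both slides showed the lower level in the edited cells, by -0.65 on slide 1 and -0.76 on slide 2. The log2 fold change was -0.70 ± 0.21 (SE, n = 4 per group), with an adjusted p of 0.0288 in limma. It was the 1 member probe called of 6 tested, where a call is an adjusted p below 0.05 and a fold change above 1.5. Over all 34599 tested probes 10.8% were called in this comparison, 5.32% higher and 5.52% lower. An unadjusted p below 0.05 was found for 3 of the 6 member probes and for 31.7% of all.

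Without HGF the same probe read 2.40, 2.44, 1.86 and 1.85 in 16HBE-WT and 2.00, 2.00, 1.16 and 1.48 in 16HBE-ex14. These groups overlapped, because the wild-type arrays of slide 2 lay below the edited arrays of slide 1. The difference of -0.48 ± 0.21 had an adjusted p of 0.141, so 0 of 6 member probes were called (limma; 3 had an unadjusted p below 0.05), against 9.4% of all tested probes called, 4.51% higher and 4.88% lower, and 30.3% with an unadjusted p below 0.05. Within the slides the differences were -0.42 and -0.54.

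The 3′ probe of SOX13 pointed the other way. With HGF it read -0.10, 0.08, 0.03 and 0.34 in wild-type cells and 0.30, 0.22, 0.87 and 0.66 in edited cells. Only the highest wild-type array reached into the edited group, and the difference of 0.42 ± 0.16 had an adjusted p of 0.0728. Without HGF it was 0.32 ± 0.16 (adjusted p = 0.181). The middle probe differed by 0.31 ± 0.41 without HGF and 0.05 ± 0.41 with HGF, with overlapping groups and a spread between arrays larger than both.

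Across the 16 arrays the CAG-rich and the 3′ probe had a Pearson correlation of -0.82, a description over arrays that share condition and slide. The level of the one minus the other was lower by 1.13 in 16HBE-ex14+HGF than in 16HBE-WT+HGF (exact permutation test over 70 assignments, two-sided p = 0.0286, adjusted over 2 comparisons 0.0572; n = 4 per group), a comparison chosen after the values were seen, and 0.0286 is the smallest p this design allows. Without HGF the difference was -0.80 (exact p = 0.143). When the 3 probes were averaged, SOX13 differed by -0.08 with HGF (adjusted p = 0.807). Tested probes of other genes with at least as many CAG triplets numbered 3. They were those of TFEB, KRTAP10-9 and DSPP. Their correlations with the SOX13 probe were 0.88, 0.81 and 0.25, beside a median of 0.01 over all tested probes. All 3 had lower means in edited cells with and without HGF, where the medians of all tested probes were -0.00 and -0.02. Of the 3, 1 was called lower with HGF and 0 without, beside 5.52% and 4.88% of all tested probes. Whether the repeat plays a part in the SOX13 reading was not tested.

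**Figure D1:**
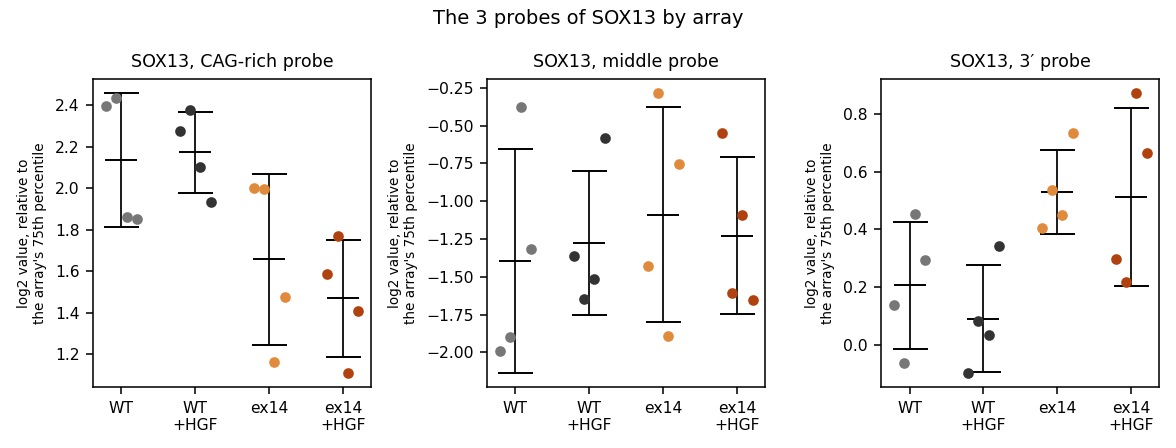
Log2 values of the 3 SOX13 probes in each of the 16 arrays, with points ordered by replicate within a condition and bars for mean ± SD (n = 4). The CAG-rich probe is lower in 16HBE-ex14+HGF without overlap (1.11 to 1.77 against 1.93 to 2.38), whereas the 3′ probe has its higher means in edited cells.

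The SOX13 call ended under normexp background correction (-0.58, under the fold limit) and when arrays were scaled to their median (-0.61, adjusted p = 0.0794) or to spike-in probes (-0.60, 0.0832). It was also lost without 16HBE-WT+HGF replicate 1 (-0.67, adjusted p = 0.0661), 16HBE-WT+HGF replicate 2 (-0.63, 0.0788), 16HBE-ex14+HGF replicate 3 (-0.58, 0.0906) or 16HBE-ex14+HGF replicate 4 (-0.68, 0.0649).

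SOX17, read by a probe at chr8:55372791-55372850 (hg19, plus strand), was well above background on all 8 wild-type arrays. Of the edited arrays 0 of 4 without HGF and 2 of 4 with HGF passed that mark. It read -1.16, -1.03, -1.04 and -0.65 in 16HBE-WT. In 16HBE-ex14 it read -6.53, -5.47, -4.93 and -6.47, all below detection. Every wild-type array lay far above every edited array, and since the edited arrays gave only an upper limit the level was at least 11.99-fold lower.

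With HGF the SOX17 values were -0.85, -0.91, -0.55 and -0.49 in wild-type cells and -4.73, -5.04, -3.75 and -3.94 in edited cells. Again the genotypes did not overlap, but 2 of the 4 edited arrays were not above background, so no fold is given. The edited arrays with and without HGF overlapped, and the 2 arrays above background were those of slide 2. The edited arrays alone would not have met the filter, so SOX17 entered the test only through the wild-type cells, where it is high. Its level in edited cells, for which it was picked, is low beside those same wild-type arrays. Between the wild-type groups HGF moved SOX17 by 0.27 ± 0.34 (adjusted p = 0.9997 in limma). With another background correction, normexp, the means of the genotypes differed by -1.39 without and -1.44 with HGF, less than the bound given above. That setting adds an offset of 50 to every intensity. The processed intensities of SOX17 ran from 74.1 to 112 in 16HBE-WT and from 2.29 to 7.88 in 16HBE-ex14. The size of the SOX17 difference thus depends on the background correction and its offset. Of 8 endothelial markers, genes of a cell type that is known for SOX17, CDH5 and VWF were above background and not called, and the other 6 were on no array. Their summed level on the linear scale ran from 0.318 to 0.662 over all arrays and overlapped between the conditions. The summed fibroblast markers did not overlap between the genotypes, from 0.558 to 1.05 in 16HBE-WT and from 0.334 to 0.517 in 16HBE-ex14, and with HGF from 0.576 to 0.813 and from 0.411 to 0.431. Of these 7 genes 4 were on no array of either wild-type group. Nor did the neural markers overlap, from 4.87 to 6.65 and from 6.76 to 8.58 without HGF and from 5.58 to 7.35 and from 8.88 to 9.53 with HGF, with 3 of 5 genes on no array in any group. Most of the neural sum came from TUBB3, with mean log2 values of 2.39 in 16HBE-WT and 2.78 in 16HBE-ex14. Its difference without HGF was under the fold limit (0.40). Their part in the SOX results was not tested.

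**Figure D2:**
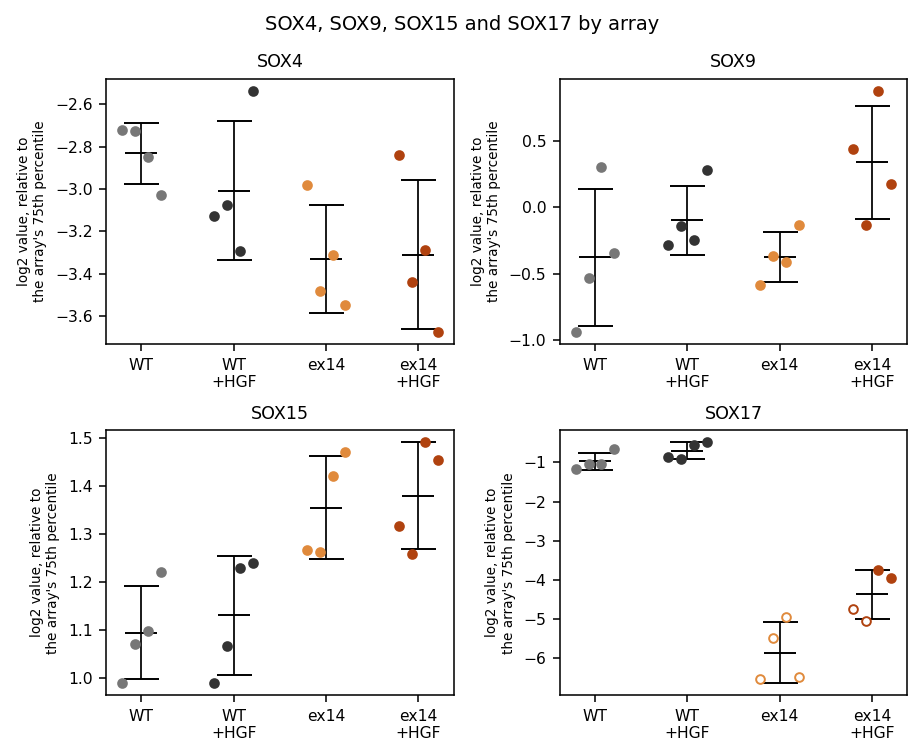
Log2 values of SOX4, SOX9, SOX15 and SOX17 in each array, by condition, with bars for mean ± SD (n = 4) and open points for arrays not well above background. SOX17 separates the genotypes, from -1.16 to -0.49 in wild-type cells and from -6.53 to -3.75 in edited cells. The 8 edited SOX15 arrays lie narrowly above the 8 wild-type arrays, and how many of all tested probes do so was not counted.

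Among definitive endoderm genes that accompany SOX17 in development, 8 of 10 were tested. Without HGF 1 was called higher and 1 lower in 16HBE-ex14, and with HGF 2 were higher and 1 lower, with list medians of -0.07 and -0.22 beside -0.02 and -0.00 over all tested probes. Of all tested probes 9.4% were called without and 10.8% with HGF. FOXA2, a pioneer factor of endoderm, was above background on 0 of 4 arrays of 16HBE-WT and on 4 of 4 of 16HBE-ex14, at least 17.4-fold higher. With HGF it differed by 5.13, where 3 of 4 wild-type arrays were above background. The wild-type arrays alone would not have met the filter. FOXA2 thus entered the test only through the edited cells, where it is high, and its calls are a description. Under normexp its differences were smaller, 1.78 and 2.77. GATA6, another endoderm factor, was lower by -1.89 ± 0.15 without HGF and by -2.09 ± 0.15 with HGF (adjusted p = 1.48e-06 and 5.31e-07), and under normexp by -1.20 and -1.31. EOMES, a T-box factor of early endoderm, was above background on 0 of the 8 wild-type and 8 of the 8 edited arrays, so it passed the filter only through the edited cells. It was the other gene counted as higher with HGF, at least 1.68-fold, but under normexp it differed by 0.03 and was not called (adjusted p = 0.790). FOXA2 and GATA6 thus moved in opposite directions in the clone.

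SOX9, which drives cartilage formation and marks the distal lung bud, was read by a probe at chr17:70121841-70121900 (hg19, plus strand). In 16HBE-ex14 it read -0.59, -0.37, -0.41 and -0.13, and in 16HBE-ex14+HGF 0.44, -0.13, 0.88 and 0.18. The arrays with HGF lay above those without, but the lowest of them almost touched the highest without HGF. The log2 fold change with HGF was 0.72 ± 0.25 (SE, n = 4 per group), and its adjusted p of 0.172 did not pass the test. In 16HBE-ex14 cells HGF called 0 of 6 member probes (limma; 1 had an unadjusted p below 0.05) and 2% of all tested probes, 1.05% higher and 0.957% lower, with 14.2% at an unadjusted p below 0.05. Of all calls 52.2% were higher, and 24.1% under median and 35.5% under spike-in scaling. Within the slides SOX9 moved by 0.63 and 0.80.

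In wild-type cells SOX9 read -0.94, -0.54, 0.31 and -0.35 without HGF and -0.28, -0.14, -0.25 and 0.29 with HGF. These groups overlapped fully, with a change of 0.28 ± 0.25 (adjusted p = 0.9997). There, 0 of 7 member probes were called (limma, 0 had an unadjusted p below 0.05), as were 0% of all tested probes, of which 1694, or 4.9%, had an unadjusted p below 0.05. The 7 include SOX17, which met the filter only through wild-type cells. The difference between the HGF responses of SOX9 was 0.44, with a 95% confidence interval from -0.32 to 1.19 and values from 0.21 to 0.62 with an array left out, and 0 of 6 member probes were called for that difference (limma; 0 at an unadjusted p below 0.05, and 1600 or 4.62% of all tested probes), against 0% overall. The genotypes differed in SOX9 by 0.00 ± 0.25 without HGF and 0.44 ± 0.25 with HGF (adjusted p = 0.254), the latter from 0.26 to 0.60 with an array left out.

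SOX9-AS1, a noncoding transcript named for SOX9, has 3 probes, of which 1 was above background. It lies at chr17:70067195-70067254 (hg19) on the minus strand, opposite to SOX9. It read -3.42, -2.99, -3.22 and -2.90 in 16HBE-ex14 and -1.98, -2.07, -2.18 and -1.96 in 16HBE-ex14+HGF. The groups did not overlap, and the rise of 1.09 ± 0.25 passed the test (adjusted p = 0.0286), as did the difference of 0.83 ± 0.25 from 16HBE-WT+HGF (adjusted p = 0.0283). In wild-type cells HGF moved it by 0.44 ± 0.25 (adjusted p = 0.9997), and the difference between the 2 responses was 0.65 ± 0.35 (adjusted p = 1).

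The call of SOX9-AS1 with HGF rested on all arrays of the comparison: leaving out any 1 of the 8 gave changes from 0.99 to 1.16 with adjusted p values up to 0.0835, and under normexp the change was 0.41, under the fold limit. Scaling to the array median (0.93, adjusted p = 0.0538) and no filter on dim probes (adjusted p = 0.0583) ended the call too. The genotype call with HGF was lost without 16HBE-ex14+HGF replicate 1, 2 or 4 or 16HBE-WT+HGF replicate 2 or 4, with values from 0.62 and an adjusted p up to 0.0878, and under normexp (0.13, 0.174). Of the 5 noncoding transcripts named for a SOX gene, SOX2-OT was the other one tested, and it was not called.

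Of 10 cartilage genes that SOX9 activates, 7 were tested. COL9A2 and COL9A3, chains of the cartilage collagen IX, were the 2 called lower in 16HBE-ex14, both with and without HGF. COL9A2 differed by -0.95 ± 0.13 without HGF and -1.44 ± 0.13 with HGF (adjusted p = 0.000155 and 3.86e-06), the latter -0.94 under normexp. COL9A3 differed by -0.79 ± 0.11 and -0.67 ± 0.11 (adjusted p = 0.000257 and 0.000758). HGF lowered COL9A2 in 16HBE-ex14 by -0.59 ± 0.13 (adjusted p = 0.0211), the 1 call of the list there, which was lost without replicate 2 or 4 of 16HBE-ex14 or, with HGF, replicate 2, 3 or 4 (-0.61 to -0.51, adjusted p up to 0.0820), under normexp (-0.33), without a filter on dim probes (adjusted p = 0.0518) and with only the compared conditions in the fit (0.111). In wild-type cells HGF moved COL9A2 by -0.10, and the difference between the responses was -0.49, neither of them called. Under normexp COL9A3 fell under the fold limit between the genotypes (-0.52 and -0.47), and with HGF also under median and spike-in scaling (both -0.57). The list medians were -0.01 without and -0.03 with HGF for the genotypes, beside -0.02 and -0.00 over all tested probes. The shares of all tested probes called lower were 4.88% and 5.52% between the genotypes, and 0.957% with HGF in 16HBE-ex14.

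**Figure D3:**
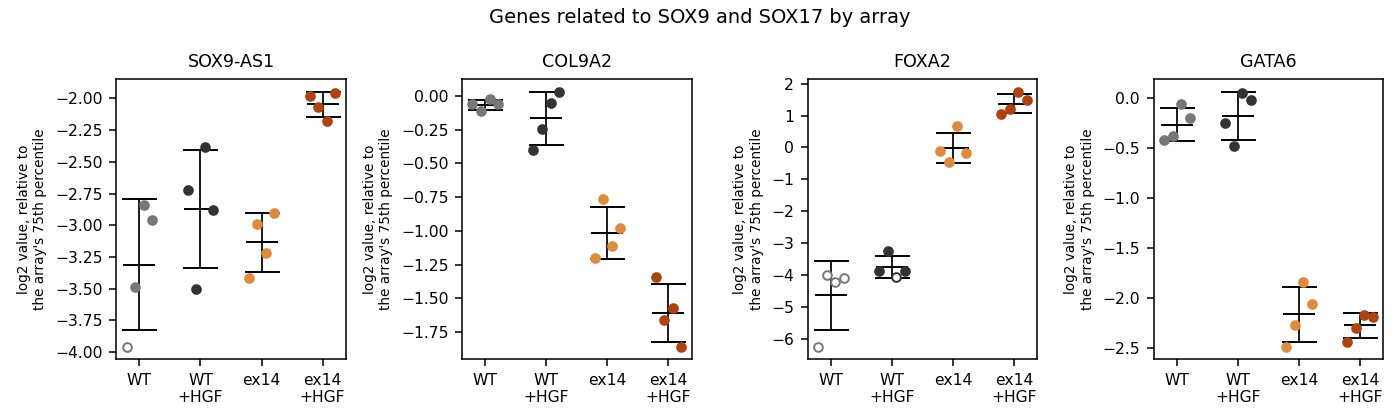
Log2 values of SOX9-AS1, COL9A2, FOXA2 and GATA6 in each array, by condition, with bars for mean ± SD (n = 4) and open points for arrays not well above background. SOX9-AS1 is highest in 16HBE-ex14+HGF (-2.18 to -1.96), and FOXA2 and GATA6 separate the genotypes in opposite directions.

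SOX15, a SOXG protein with a role in muscle regeneration, was read by a probe at chr17:7493029-7493088 (hg19, minus strand). It read 0.99, 1.07, 1.10 and 1.22 in 16HBE-WT and 1.27, 1.26, 1.42 and 1.47 in 16HBE-ex14. With HGF it read 0.99, 1.07, 1.23 and 1.24 in wild-type cells and 1.32, 1.26, 1.49 and 1.46 in edited cells. All edited arrays lay above all wild-type arrays of the same treatment, by a narrow margin. How many of all tested probes separate the genotypes in this way was not counted. An unadjusted p below 0.05 (limma) was found for SOX15 in both comparisons. It was also found for 30.3% of all tested probes without HGF and 31.7% with HGF. The differences of 0.26 ± 0.09 and 0.25 ± 0.09 had adjusted p values of 0.0687 and 0.0769 and folds of 1.20 and 1.19, under the fold limit. Under other settings the adjusted p (limma) ran from 0.00585 to 0.1485 without HGF and from 0.00678 to 0.156 with HGF. The differences then reached 0.43 and 0.35, still under the fold limit. HGF moved SOX15 by 0.04 in wild-type and 0.02 in edited cells.

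SOX4, a SOXC protein active in neuronal and progenitor cells and read at chr6:21598001-21598060 (hg19, plus strand), was a dim signal in all arrays. It read -2.72, -2.72, -2.85 and -3.03 in 16HBE-WT and -2.98, -3.48, -3.31 and -3.55 in 16HBE-ex14. One edited array reached into the wild-type range, and the difference of -0.50 ± 0.19 had an adjusted p of 0.0891. Without 16HBE-ex14 replicate 1, the array that overlapped, it was -0.62 with an adjusted p of 0.0480. Over all single arrays left out it ran from -0.62 to -0.43, with an adjusted p (limma) up to 0.207. Under other settings it shrank to as little as -0.28, and the adjusted p ran from 0.0136 to 0.356. With HGF SOX4 read -3.13, -3.08, -3.29 and -2.54 in wild-type and -2.84, -3.44, -3.29 and -3.67 in edited cells. These groups overlapped, with a difference of -0.30 ± 0.19 (adjusted p = 0.317). It was -0.04 on slide 1 and -0.57 on slide 2, and ran from -0.46 to -0.14 with an array left out. HGF itself moved SOX4 by -0.18 ± 0.19 in wild-type and 0.02 ± 0.19 in edited cells (adjusted p = 0.9997 and 0.981).

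**Figure D4:**
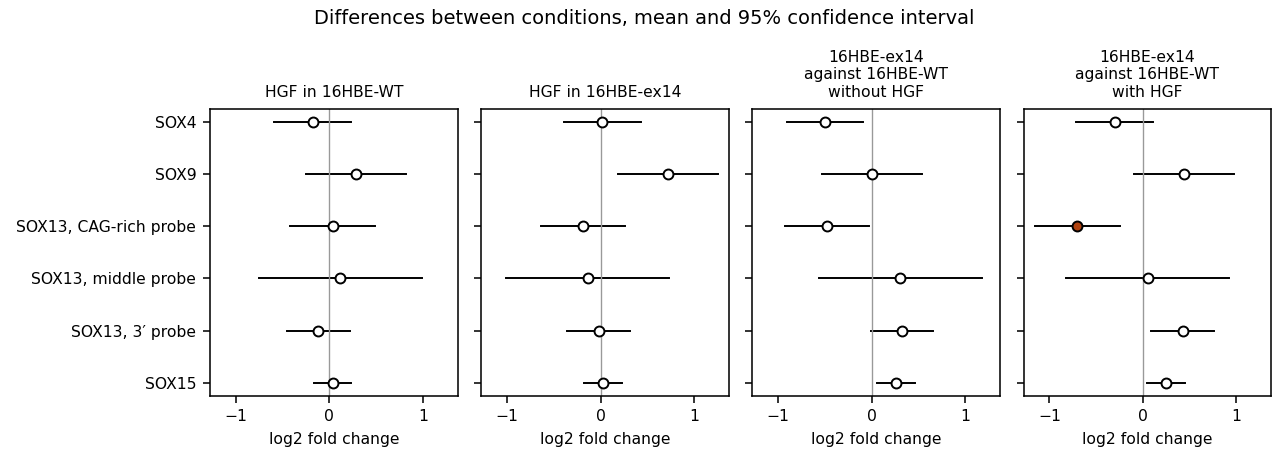
Log2 fold changes (points) with 95% confidence intervals (lines) of the 6 tested probes of SOX4, SOX9, SOX13 and SOX15 in 4 comparisons, with a filled point for a probe that was called. The CAG-rich SOX13 probe with HGF, at -0.70, is the filled point, and the SOX15 intervals are the narrowest.

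Of 6 genes known as SOX4 and SOX11 targets, 5 were tested. MAP2, a neuronal microtubule protein, was the 1 called lower with HGF in 16HBE-ex14 (-0.67 ± 0.11, adjusted p = 0.00444; -0.56 under normexp, under the fold limit). In wild-type cells HGF moved MAP2 by -0.44, and the difference between the responses was -0.23, neither of them called. With HGF TUBB3, a neuronal tubulin, was higher in the edited cells (0.63 ± 0.12, adjusted p = 0.00161; 0.58 with quantile scaling, under the fold limit) and STMN1, a microtubule destabiliser, was lower (-0.59 ± 0.07, adjusted p = 3.52e-05), the latter under the fold limit without 16HBE-ex14+HGF replicate 1, 2 or 3 or 16HBE-WT+HGF replicate 3 or 4 (-0.58 or -0.57), and under normexp, median and spike-in scaling (-0.51, -0.50 and -0.49). Without HGF TEAD2 was higher (0.77 ± 0.19, adjusted p = 0.0126), a call that normexp ended (0.14). With HGF TEAD2 differed by 0.58 ± 0.19 (adjusted p = 0.04725 in limma), just under the fold limit and with overlapping groups. The list medians between the genotypes were -0.06 without and -0.29 with HGF. Called shares over all tested probes were 9.4% and 10.8% there, and 2% with HGF in 16HBE-ex14.

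SOX2, a factor of stem cells and proximal airway, SOX7, an endothelial and endodermal factor, SOX11, a neuronal SOXC factor, and SOX21, a factor of neural progenitors, were well above background on 0 of 16 arrays. Their log2 values ran from -7.27 to -5.29 for SOX2, from -6.44 to -4.36 for SOX7, from -6.93 to -5.78 for SOX11 and from -6.63 to -5.74 for SOX21. The lowest value called well above background ran from -4.95 to -3.77 over arrays, and each of these values lay below that of its own array. No difference between conditions was detectable for these 4 genes. SOX12, the third SOXC factor, was above background on 3 of 16 arrays, 1 of the wild-type cells with HGF and 1 of the edited cells under each treatment, and ran from -5.48 to -3.33. Of all probes on the array 30.7% were above background on no array.

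**Figure D5:**
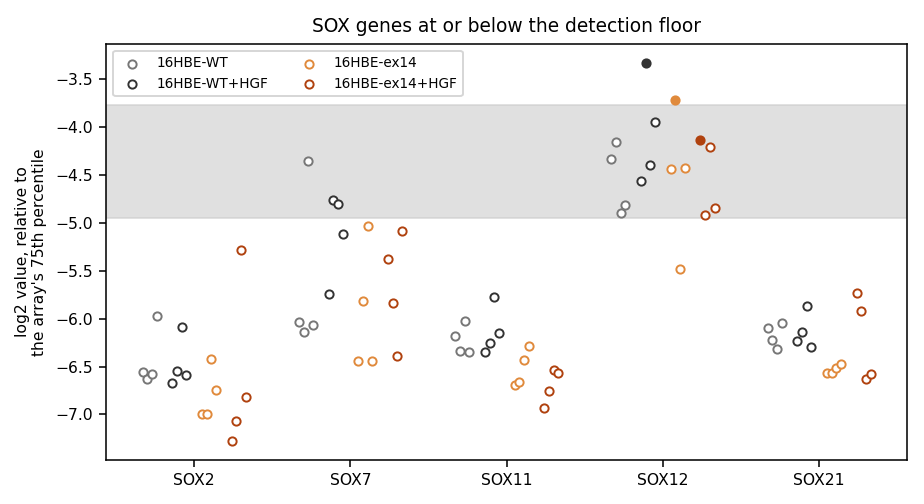
Log2 values of SOX2, SOX7, SOX11, SOX12 and SOX21 in the 16 arrays, coloured by condition, with open points for arrays not well above background. The grey band spans the lowest value called well above background over the 16 arrays, from -4.95 to -3.77, and 3 points of SOX12 are filled.

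Of the 9 other SOX genes on the array, SOX3, SOX5, SOX8 and SOX30 were tested and 0 were called by limma in any of the 5 comparisons. Over all tested probes 0% were called with HGF in 16HBE-WT and 2% in 16HBE-ex14. Between the genotypes 9.4% were called without and 10.8% with HGF, and 0% for the difference between the responses. SOX18, the vascular relative of SOX7 and SOX17, was above background on no array.

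Of 12 lung bud and airway progenitor genes that accompany SOX2 or SOX9, 11 were tested. KRT5 and KRT14, keratins of basal cells, fell with HGF in 16HBE-ex14 (-2.32 ± 0.19 and -0.97 ± 0.22, adjusted p = 0.000147 and 0.0283), as did the FGF receptor FGFR2 (-1.34 ± 0.19, adjusted p = 0.00181). ETV4 and ETV5, FGF-responsive factors of the bud tip, rose (1.23 ± 0.26 and 0.79 ± 0.16, adjusted p = 0.0178 and 0.0169). These made 2 genes higher and 3 lower, with a list median of 0.06 beside 0.05 over all tested probes, of which 1.05% were called higher and 0.957% lower. With 1 array left out the calls of KRT14 (7 of the 8 arrays, all but 16HBE-ex14 replicate 3), ETV4 (replicate 1, 2 or 4 of 16HBE-ex14, and 3 or 4 of 16HBE-ex14+HGF) and ETV5 (replicate 2 of 16HBE-ex14, and 2 or 3 of 16HBE-ex14+HGF) were lost, with adjusted p values up to 0.105, 0.0712 and 0.0672. With only the compared conditions in the fit ETV4 and ETV5 were not called (adjusted p = 0.0894 and 0.118), nor was ETV5 under normexp (0.48) or median scaling (0.63, 0.0705), nor KRT14 without a filter on dim probes (0.0587). Under normexp KRT5 and ETV4 were called with changes of -1.49 and 0.82. In wild-type cells HGF moved KRT5 by -0.63, KRT14 by -0.495, FGFR2 by -0.36, ETV4 by 0.41 and ETV5 by 0.14, and none was called. The differences between the responses were -1.69, -0.47, -0.98, 0.82 and 0.65 in the same order. None of these was called either, so the changes are not shown to be particular to the edited cells.

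Between the genotypes KRT5 was lower by -2.57 ± 0.19 without HGF and -4.26 ± 0.19 with HGF, and KRT14 by -1.74 ± 0.22 and -2.21 ± 0.22. ID2, an inhibitor of differentiation found in the distal bud, was lower by -1.25 ± 0.16 and -1.19 ± 0.16. All of these had adjusted p values of at most 0.000116. BMP4 was lower by -0.68 ± 0.20 in both (adjusted p = 0.0273 and 0.0239), calls that were lost without 16HBE-WT replicate 2 or 3 or replicate 1, 2 or 4 of 16HBE-ex14 (adjusted p up to 0.0818), and with HGF without 16HBE-WT+HGF replicate 3 or 4 or 16HBE-ex14+HGF replicate 4 (up to 0.0770). The BMP4 calls also ended under normexp, median and spike-in scaling, with values from -0.59 to -0.42, and the call without HGF also without a filter on dim probes (adjusted p = 0.0552) and with only the compared conditions (0.0522). FGFR2 was higher without HGF (1.16 ± 0.19, adjusted p = 0.000649) and ETV5 with HGF (0.88 ± 0.16, adjusted p = 0.00142, but 0.44 under normexp, under the fold limit). This makes 1 higher and 4 lower in each comparison. Among all tested probes 4.51% were called higher and 4.88% lower without HGF, and 5.32% and 5.52% with HGF.

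Of 14 partner proteins of SOX factors, 12 were tested, and none was called with HGF in either genotype (limma). POU5F1, the partner of SOX2 in stem cells, was lower in the edited cells by -0.71 ± 0.15 without HGF, a difference under the fold limit without 16HBE-ex14 replicate 3 (-0.58) and under normexp, median and spike-in scaling (-0.57, -0.57 and -0.54), and by -0.93 ± 0.15 with HGF. NFIA, a partner of SOX9 in glia, was lower by -0.92 ± 0.12 and -0.96 ± 0.12. The coactivator CREBBP was higher by 0.87 ± 0.10 and 0.80 ± 0.10. These 1 higher and 2 lower genes had adjusted p values of at most 0.00531, and the list medians were -0.02 and 0.02. Between the genotypes 9.4% of all tested probes were called without and 10.8% with HGF. With HGF in 16HBE-WT and in 16HBE-ex14 the shares were 0% and 2%. POU5F1 has near-identical retrogene copies, and whether its probe also reads them was not tested.

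Of the HMG box relatives in the WNT pathway 3 of 4 were tested. TCF7L1, a repressor of WNT targets, fell with HGF in 16HBE-ex14 (-0.90 ± 0.19, adjusted p = 0.0164), a call lost without replicate 2 or 4 of 16HBE-ex14 or, with HGF, replicate 2 or 3 (adjusted p up to 0.0675) or with only the compared conditions (0.105). It was also lower in 16HBE-ex14+HGF than in 16HBE-WT+HGF (-0.84 ± 0.19, adjusted p = 0.00471). In wild-type cells HGF moved TCF7L1 by -0.33, and the difference between the responses was -0.57, neither of them called. Lower calls made up 0.957% of all tested probes with HGF in 16HBE-ex14 and 5.52% between the genotypes with HGF.

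As a description of likeness, the genes with the highest Pearson correlation over the 16 arrays were taken for each detected SOX gene from about 19290 genes above background on all arrays. SOX9 was most like SOCS3 (0.91), CXCL1 (0.91) and PCDH1 (0.89). SOX17 was most like DSE (0.98), CALHM6 (0.98) and LOXL1 (0.98), and SOX15 like RFC1 (0.96), TINF2 (0.96) and CNEP1R1 (0.96). Because SOX17 was picked for its low level in edited cells, its ranking is bound to favour genes that also separate the genotypes. SOX4 was most like NAV1 (0.86), KISS1 (0.85) and LOC101929099 (0.80). The CAG-rich SOX13 probe was most like AGO1 (0.96), whose probe holds 6 CAG triplets, ENST00000430550 (0.96), whose probe holds 2, and LINC01541 (0.96), whose probe holds 1. The arrays share condition, slide and scaling. With median scaling HBEGF, ENST00000520558, ASCC1 and RUNX3 entered the 3 most alike genes of SOX9, SOX13, SOX15 and SOX17.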

How the data were processed

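The deposited files hold one-colour Agilent arrays. The authors scanned and extracted them with Feature Extraction (version 10.7.3.1 in the submitters' processing notes), and the deposited intensity is a background-subtracted processed signal on a linear scale, not scaled between arrays. The study's methods name limma, and how arrays were scaled is not given in the sources used here. From the intensity, log2 values minus the 75th percentile of each array were computed, without spots marked as outliers, and averaged per probe. A probe was tested if at least 4 of 16 arrays were well above background (34599 of 58201 probes). R 4.3.3 and limma 3.58.1 fitted 1 mean per condition with 5 contrasts, with Benjamini-Hochberg adjustment over all tested probes of a contrast. A call needed an adjusted p below 0.05 and a fold change above 1.5. Errors of differences are SEs from limma, and n is 4 per group.

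In the gene lists the tested probe with the highest mean signal stood for its gene. The text names all 10 SOX genes, MET, HGF, up to 6 called genes of a list and the 3 most alike genes of each detected SOX gene. A bound of the form at least N-fold sets the bright group against, per array, the higher of the dim probe and the lowest signal well above background, and holds for this background correction only. The members and lists were chosen with earlier results of these data known. Positions are those of the array annotation (hg19), and 11 of 12 SOX probe accessions had the same symbol in the RefSeq table. Alternatives were normexp with an offset of 50, quantile, median or spike-in scaling, no filter or 12 arrays as the filter, keeping outlier spots, a block for slide or for array row, a trended robust prior, the compared conditions alone, no fold limit, the mean of a gene's probes, and leaving out each array. The fit was tested on simulated data. Of the marker lists, 3 of 7 fibroblast, 4 of 5 blood and 2 of 5 neural genes were tested. Among them LUM was lower in 16HBE-ex14 without and with HGF (at least 3.06-fold and 2.23-fold, but log2 differences of -0.83 and -0.69 under normexp), CD3E was lower without HGF (-0.98, adjusted p = 0.0242 in limma), a call lost without replicate 1 or 2 of 16HBE-WT or replicate 2, 3 or 4 of 16HBE-ex14 (adjusted p up to 0.0787) and under normexp (-0.41, under the fold limit), and TUBB3 was higher with HGF. LUM passed the filter only through the wild-type cells. Of the epithelial markers KRT5 was lower.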

Additional observations from a re-analysis of the deposited data

How the results depend on the processing

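The number of SOX probes called was 0 under every alternative with HGF in either genotype and for the difference between the responses. Between the genotypes with HGF it fell from 1 to 0 under normexp, median and spike-in scaling, where the CAG-rich SOX13 probe read -0.58, -0.61 and -0.60, and it ranged from 0 to 1 with an array left out, 0 without 16HBE-WT+HGF replicate 1 or 2 or 16HBE-ex14+HGF replicate 3 or 4; without HGF it was 0, and 1 without 16HBE-ex14 replicate 1. Between the genotypes some adjusted p values (limma) fell below 0.05 under other settings while the difference stayed under the fold limit. Without HGF the lowest were 0.00585 (SOX15), 0.00445 (CAG-rich SOX13), 0.0136 (SOX4) and 0.0486 (3′ SOX13). With HGF they were 0.00678 (SOX15), 0.00858 (SOX4) and 0.0129 (3′ SOX13). With array row as a replicate block the counts were 0, 0, 0, 1 and 0, the same as without it. Each row of a slide held an array of every condition. Deviations from the condition means correlated from 0.0282 to 0.323 (median 0.205) for arrays in the same row. For arrays in different rows they correlated from -0.356 to 0.415 (median -0.126). Arrays of a row were thus more alike at the median, but no source ties a row to a culture, so the main fit did not pair them. The block moved the calls over all probes from 693 to 734 with HGF in edited cells, and from 3252 to 3449 and from 3749 to 3994 between the genotypes.

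Some differences changed sign, none of which passed or, for SOX17, was put to a test. Median and spike-in scaling shift all probes of a comparison by a common amount. With HGF in wild-type cells the median of all tested probes was 0.0376, and -0.0798 under median and -0.0159 under spike-in scaling. The cause of sign changes under the other settings was not tested. With HGF in wild-type cells median and spike-in scaling gave -0.0809 and -0.0170 for SOX15 and -0.0810 and -0.0170 for the CAG-rich SOX13 probe, and normexp 0.0263 for SOX4. In edited cells they gave -0.134 and -0.0962 for SOX15 and -0.139 and -0.101 for SOX4, which quantile scaling put at -0.120. Between the genotypes without HGF SOX9 was -0.0432 under normexp and -0.00628 under quantile scaling, and the mean of the SOX13 probes was 0.0511 beside -0.48 for the CAG-rich probe; with HGF the middle SOX13 probe was -0.0566 under normexp. The difference between the responses was 0.00872 for SOX15 under quantile scaling, and -0.0590 for SOX17 (1.21 before) and -0.0165 for SOX4 under normexp. With an array left out the ranges that crossed 0 were, with HGF in wild-type cells, -0.0585 to 0.136 (CAG-rich SOX13) and -0.113 to 0.459 (middle); in edited cells, -0.138 to 0.0811 (3′ SOX13), -0.406 to 0.130 (middle), -0.0121 to 0.0655 (SOX15) and -0.137 to 0.141 (SOX4); between the genotypes, -0.184 to 0.232 (SOX9 without HGF) and -0.176 to 0.281 (middle, with HGF); and for the difference between the responses, -0.0214 to 0.198 (3′), -0.598 to 0.0112 (middle) and -0.0590 to 0.029 (SOX15).

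The median of all tested probes between the genotypes was -0.13 without and -0.14 with HGF under normexp, and 0.12 and 0.09 under median and 0.15 and 0.10 under spike-in scaling. The share of calls that were higher in 16HBE-ex14 without HGF was 48.0%, and 60.0%, 71.8% and 76.0% under these. Calls over all probes numbered 3252 without and 3749 with HGF, and 1489 and 1814 under normexp, and 6349 and 7125 without the fold limit. With HGF in edited cells there were 693, and 411 under normexp and 246 with only the compared conditions; leaving out 1 array gave 346 to 977, with 346 and 374 without 16HBE-ex14 replicate 2 or 4 and 377 and 442 without 16HBE-ex14+HGF replicate 3 or 4. Signal near background limits SOX2, SOX7, SOX11, SOX12 and SOX21.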
